A study of Mus musculus with 18 samples.

Results

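The genes described here were zinc-dependent histone deacetylases, a family that includes the enzymes inhibited by bacterial butyrate. They were taken by gene symbol from the gene list of the deposited matrices and were 10 of the 30905 genes there: Hdac1, Hdac2, Hdac3 and Hdac8 (class I), Hdac4, Hdac5, Hdac7 and Hdac9 (class IIa), Hdac6 (class IIb) and Hdac11 (class IV). Single-nucleus RNA was sequenced from frozen hippocampus (Hip) and prefrontal lobe cortex (PFC) of 9 Kun Ming mice, all 8 weeks old, as 18 droplet libraries with 1 for each mouse and region. Of the mice, 3 were germ-free (GF) mice, which carry no gut microbiota, 3 were specific pathogen free (SPF) mice with a microbiota, and 3 were colonized germ-free (CGF) mice, which were GF until 4 weeks of age and then shared an isolator with SPF mice for 4 weeks. Film isolators held the GF and CGF mice, and the SPF mice were raised under other conditions, so that the absence of microbes and the housing cannot be told apart between GF and SPF mice. Mice are numbered here as their deposited libraries are labelled, and another listing of these libraries has the cell numbers of GF mice 6 and 7 exchanged in both regions, so that which of these 2 mice a value belongs to is uncertain. The questions were in which cells each deacetylase was transcribed, whether its transcript level differed between mice with and without microbiota, and whether colonization or the brain region changed that difference.

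Histone deacetylases remove acetyl groups from lysines of histones and of other proteins, and on chromatin this usually goes with repression of transcription. Class I enzymes work in the nucleus as catalytic subunits of co-repressor complexes. Class IIa enzymes bind MEF2 transcription factors and move out of the nucleus when phosphorylated by calcium-dependent kinases, where 14-3-3 proteins hold them. Butyrate, a short-chain fatty acid made by gut bacteria from fibre, inhibits the activity of several of these enzymes, and the counts here are of nuclear transcripts, not of enzyme activity or of acetylation.

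On mm10, the build of the deposited counts, the members range in length from Hdac6, 17.8 kb on chromosome X (chrX:7930120-7947889, reverse strand), to Hdac9, 870 kb on chromosome 12 (chr12:34047580-34917095, reverse strand). Hdac5 (chr11:102194432-102230166, reverse strand) spans 35.7 kb, Hdac8 (chrX:102284639-102505359, reverse strand) 221 kb and Hdac4 (chr1:91928779-92195699, reverse strand) 267 kb. Hdac4, Hdac7 and Hdac11 overlap genes on the opposite strand (Gm26720, Slc48a1 and Gm14573), and whether counting used strand or introns is not given in the sources used here. Promoters are shown for Hdac5 and Hdac6, whose share of the counted transcripts was lower in GF than in SPF mice in all the cell types of the PFC where they were tested. Each is the RefSeq promoter window of 300 bases around the gene's start (GRCm38.p6), printed 5′ to 3′ on the gene's own strand, with Hdac5 at chr11:102230123-102230422 and Hdac6 at chrX:7947840-7948139. Capitals mark 2 motifs searched on both strands, the MEF2 core (CTA, any 4 bases, then TAG) and the GC box GGGCGG.
Hdac5: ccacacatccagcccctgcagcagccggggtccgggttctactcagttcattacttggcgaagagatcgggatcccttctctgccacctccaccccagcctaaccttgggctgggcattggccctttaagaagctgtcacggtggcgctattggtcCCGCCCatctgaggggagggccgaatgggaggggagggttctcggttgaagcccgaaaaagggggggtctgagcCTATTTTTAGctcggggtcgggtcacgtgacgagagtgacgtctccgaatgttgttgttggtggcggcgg
Hdac6: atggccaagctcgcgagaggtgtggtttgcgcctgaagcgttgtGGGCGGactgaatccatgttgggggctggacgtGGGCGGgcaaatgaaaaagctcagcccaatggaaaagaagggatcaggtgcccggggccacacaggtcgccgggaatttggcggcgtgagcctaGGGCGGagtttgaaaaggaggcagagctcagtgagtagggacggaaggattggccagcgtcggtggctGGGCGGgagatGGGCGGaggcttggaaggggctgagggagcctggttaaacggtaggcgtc
The Hdac5 window holds 1 MEF2 core and 1 GC box, and the Hdac6 window holds 5 GC boxes and no MEF2 core. Of the 32851 promoters of that table, 3.69% hold the MEF2 core and 35.7% the GC box. The table has windows for 8 of the members, 12 in all, and among them the MEF2 core occurs also in Hdac2 and in 1 of the 2 windows of Hdac9, while Hdac4 holds 5 GC boxes and Hdac8 none. A match is a stretch of letters, not a measured binding site.

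Kept nuclei had 200 genes or more and at most 10% of their UMIs (unique molecular identifiers, each a counted transcript molecule) from mitochondria. There were 71398 such nuclei of the Hip and 66602 of the PFC. The libraries of the Hip held 49067853 to 63217083 UMIs, and the GF libraries stood apart there as well. Their mitochondrial share was 0.645% to 1.096%, beside 0.128% to 0.471% (SPF) and 0.0770% to 0.218% (CGF), and their median UMIs per nucleus lay at 4593 to 5809.5, beside 6132 to 7054 (SPF) and 5444.5 to 7559.5 (CGF). The part of these differences in the results of the Hip was not tested. In the PFC, the 3 GF libraries held 59126586 to 71463928 UMIs with 0.359% to 0.594% mitochondrial, and the 6 SPF and CGF libraries stood apart with 20336250 to 26949210 UMIs and 1.28% to 3.22%, so that group and library depth cannot be told apart there. Nuclei were assigned by marker lists, and the 7 cell types described here ran from 39957 excitatory neurons to 807 endothelial cells in the Hip and from 40166 to 1030 in the PFC. Nuclei of 4 further types were left out: choroid plexus (917 in the Hip and 1 in the PFC), ependymal (349 and 9), fibroblast (705 and 1023) and mural (211 and 334). A further 9280 and 9837 nuclei stayed unassigned. Of the 6 or 7 markers of a list, at least 5 had their highest level in the type they name, in both regions. The nuclei were assigned by these same markers, so this is no independent check of the types. The summed level of the 6 excitatory neuron markers was 4425 to 4661 CPM (counts scaled to the same total in each library) in hippocampal excitatory neurons of SPF mice and 1242 to 1650 CPM in their microglia, and in no type was it at 0. UMIs were summed over the nuclei of a type in each mouse, and of the 70 pairs of member and type, 63 passed the filter on low counts in the Hip and 54 in the PFC. Hdac4, Hdac8 and Hdac9 passed in all 7 types of both regions, while Hdac3 passed in 5 and 3 types and Hdac6 in 5 and 4.

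Across cell types, most members had a type in which they stood highest in both regions. Hdac8, which deacetylates the cohesin subunit Smc3, stood far higher in astrocytes than elsewhere. Hdac7, known for its role in blood vessels, was highest in endothelial cells and all but absent from microglia. Hdac11, the class IV enzyme, was highest in oligodendrocytes, and Hdac3, Hdac6 and, in the Hip, Hdac9 were highest in interneurons. The levels in this and the next 5 paragraphs are CPM scaled over all types of a region, as mean ± SD of the 9 mice of all groups. Neighbours in the order of types were compared by an exact paired permutation test over the 9 mice (two-sided, smallest possible p = 0.00391), adjusted over the 120 neighbour pairs of all members and both regions, of which 30 differed and 90 did not.

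**Figure D1:**
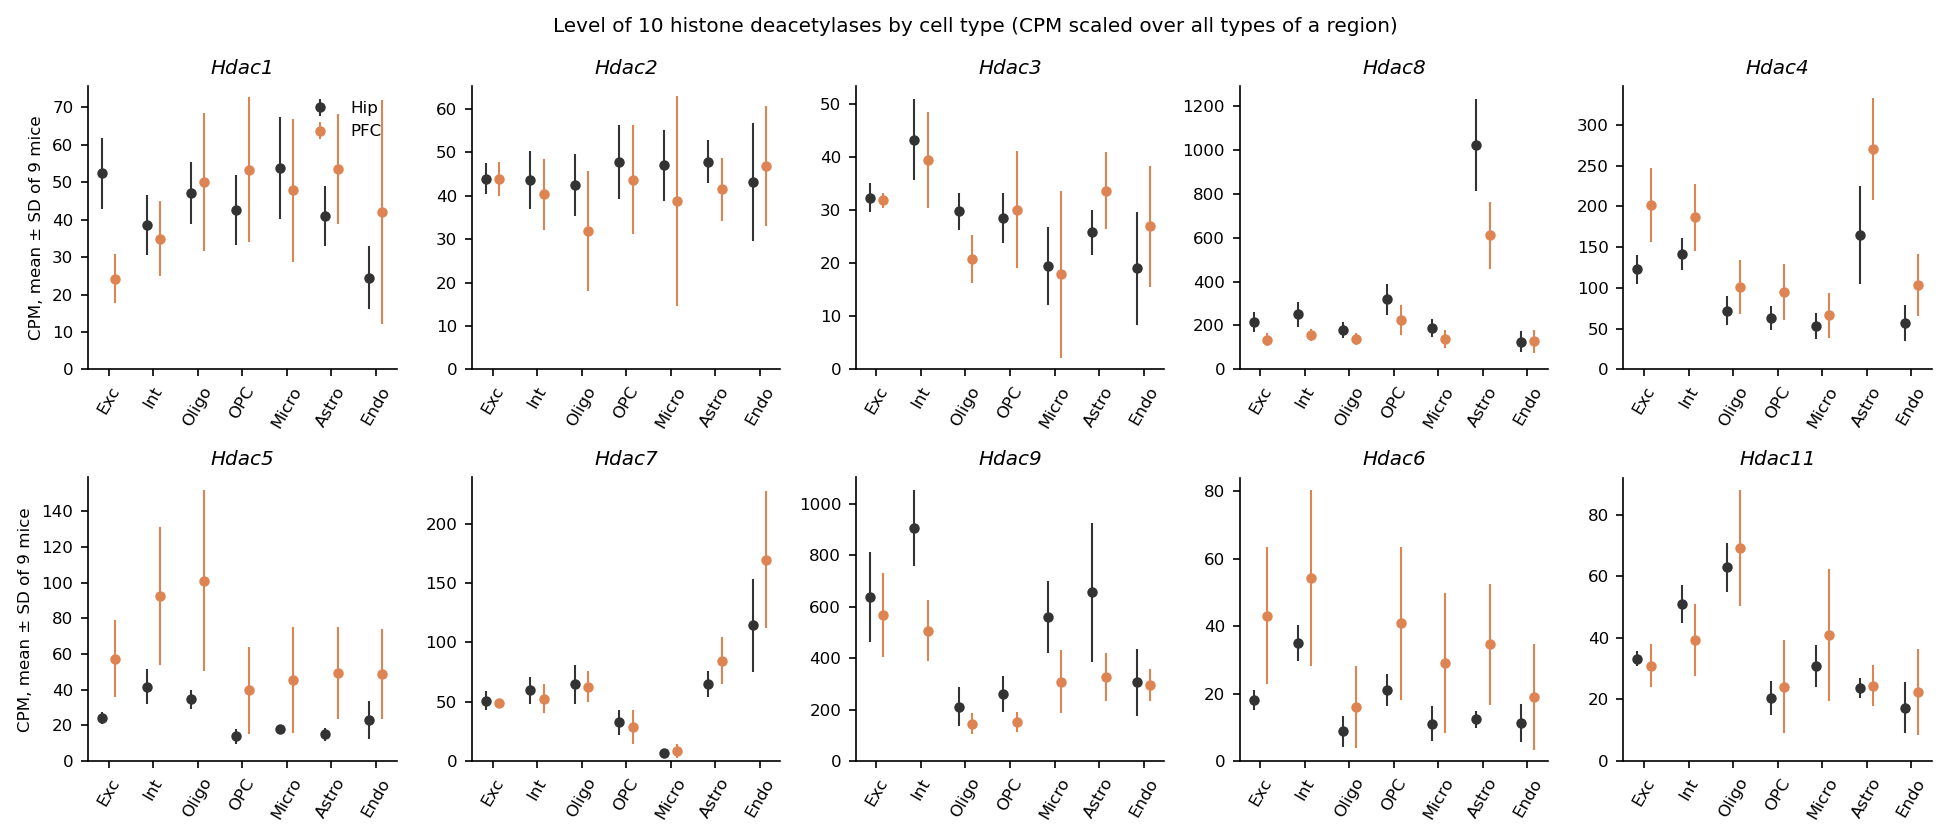
Level of each of the 10 members (1 panel each) in 7 cell types of the Hip and the PFC. The vertical axis is CPM scaled over all types of a region and starts at 0, and points and bars are the mean and SD of 9 mice. Hdac8 peaks in astrocytes, Hdac7 in endothelial cells, and Hdac2 is nearly level.

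Among class I members, Hdac8 reached 1021 ± 210.5 CPM in hippocampal astrocytes (range 764 to 1285) and 609 ± 154 in those of the PFC. Oligodendrocyte precursor cells (OPC) came next, with 319 ± 71.4 and 225 ± 66.4 CPM. The step from astrocytes to OPC was 1.68 ± 0.15 (SD), adjusted p = 0.0174 on the log2 scale in the Hip and 1.45 ± 0.19 (SD), adjusted p = 0.0174 in the PFC. All 9 mice showed it in each region. Endothelial cells were lowest for Hdac8 in both regions, at 126 ± 48.9 and 129 ± 52.7 CPM. In the PFC the 5 types from interneurons down to endothelial cells did not differ between neighbours.

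Hdac2, a catalytic subunit of the Sin3, NuRD and CoREST complexes, was the most even member. Its highest type exceeded its lowest by 1.13 times in the Hip and 1.47 times in the PFC, and no neighbours differed. Hdac1, which works in the same complexes, ran from 53.7 ± 13.6 CPM in hippocampal microglia to 24.5 ± 8.34 in endothelial cells, and the interneuron-to-endothelial step at the bottom was the single one that differed (adjusted p = 0.0469). In the PFC, excitatory neurons were lowest for Hdac1 with 24.2 ± 6.52 CPM, below interneurons with 34.9 ± 9.98 (adjusted p = 0.0174). Hdac3, the enzyme of the NCoR and SMRT complexes, was highest in interneurons, at 43.3 ± 7.67 CPM in the Hip and 39.5 ± 9.08 in the PFC. The step to the next type differed in the Hip (adjusted p = 0.0174) and not in the PFC (adjusted p = 0.402).

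Class IIa members differed in the types that led. Hdac7 measured 114 ± 39.2 CPM in endothelial cells of the Hip and 169.8 ± 57.9 in those of the PFC, above the next type in all 9 mice of each region (adjusted p = 0.0174 in each). In microglia it measured 6.42 ± 3.31 and 8.49 ± 6.20 CPM, from 28 and 12 UMIs over all 9 mice, below OPC in both regions. The ratio of its highest to its lowest type, 17.8 in the Hip and 19.99 in the PFC, was the widest of the 10 members. Over all 9 mice Hdac4 had its highest mean in astrocytes, with 165 ± 59.98 and 270.1 ± 62.5 CPM, but the groups differed in order. In the Hip, astrocytes led in GF mice alone (232 CPM). Interneurons led there in SPF (147 against 116 in astrocytes) and CGF mice (156 against 148). In the PFC excitatory neurons led in SPF mice (231 against 222). Over all mice its step down to the next type did not differ beyond the spread between mice in either region. Below its 3 leading types (astrocytes and both kinds of neurons) Hdac4 dropped, from 123 ± 17.3 CPM in excitatory neurons to 72.2 ± 18.02 in oligodendrocytes of the Hip (log2 step 0.78 ± 0.19 (SD), adjusted p = 0.0174).

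Hdac9, the longest member, measured 906 ± 149 CPM in interneurons, 657 ± 271 in astrocytes and 639.8 ± 175 in excitatory neurons of the Hip, steps that did not differ. The place of astrocytes depended on the group, with means of 977 CPM (CGF), 565 (GF) and 428 (SPF). In SPF mice they lay below excitatory neurons (771) and microglia (538). In the PFC, excitatory neurons (568 ± 163 CPM) and interneurons (508 ± 117) led and did not differ from each other. Astrocytes followed at 325 ± 93.4 CPM, below interneurons in all 9 mice (adjusted p = 0.0174). Oligodendrocytes were lowest for Hdac9 in both regions, with 211 ± 75.8 and 146 ± 39.8 CPM. Hdac5 was led by interneurons (41.6 ± 9.74 CPM) and oligodendrocytes (34.5 ± 5.17) in the Hip, which did not differ from each other, while oligodendrocytes stood above excitatory neurons (adjusted p = 0.0174). The same pair led in the PFC in the reverse order, with oligodendrocytes and interneurons at 101 ± 50.7 and 92.6 ± 38.7 CPM, where GF mice lay below both other groups.

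Hdac6, the cytoplasmic enzyme that deacetylates tubulin, was highest in interneurons, with 35.1 ± 5.33 CPM in the Hip and 54.2 ± 26.03 in the PFC. The PFC mean pools groups that differ, with means of 21.9 (GF), 75 (SPF) and 65.8 (CGF). In the Hip these stood above OPC, which came next (adjusted p = 0.0174), and in the PFC above excitatory neurons (adjusted p = 0.0174). Oligodendrocytes were lowest for Hdac6, at 8.76 ± 4.55 and 16.03 ± 12.1 CPM. For Hdac11 the order began with the opposite type. Oligodendrocytes held 62.9 ± 7.88 CPM in the Hip, above interneurons with 50.96 ± 6.14 (adjusted p = 0.0174), and 69.2 ± 18.96 CPM in the PFC, where the step to the next type did not differ (adjusted p = 0.114).

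Within neurons, nuclei were also gated into subtypes by further marker lists, and the levels are given as a description with no test. Hdac1 measured 87.1 ± 10.4 CPM in dentate granule neurons against 37.2 ± 7.72 in CA1 and 42.95 ± 7.23 in CA3 neurons. Hdac8 ran the same way, with 299 ± 70.1 CPM in dentate granule, 175 ± 37.8 in CA1 and 183 ± 39.3 in CA3 neurons. Hdac4 ran the other way, with 69.2 ± 5.56 CPM in dentate granule and 181 ± 35.3 in CA3 neurons. In the PFC, Hdac9 stood at 1007 ± 315 CPM in layer 5 neurons and at 333 ± 104 in layer 6 neurons, where Hdac4 in turn was highest of the 4 layer groups with 292 ± 72.7 CPM. Between the 2 kinds of hippocampal interneurons, Hdac4 was higher in those with markers of the medial ganglionic eminence (MGE), at 184 ± 28.6 against 80.3 ± 12.1 CPM in those of the caudal eminence (CGE). Hdac9 was higher in the CGE kind, at 1172 ± 150.2 against 677 ± 155 CPM.

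Levels of different genes were set side by side per kb of gene span (CPM scaled over all types, per kb). Whether introns were counted is not given in the sources used here, so whether UMIs should be divided by span is not known. On that scale Hdac8 led the 10 members in astrocytes, with 4.62 ± 0.954 in the Hip and 2.76 ± 0.698 in the PFC. Hdac7 led in endothelial cells, with 2.21 ± 0.757 and 3.27 ± 1.12, and Hdac11 in oligodendrocytes, with 3.49 ± 0.437 and 3.84 ± 1.05. In hippocampal excitatory neurons Hdac1 (1.97 ± 0.357) and Hdac11 (1.84 ± 0.133) led, and Hdac4 was last at 0.459 ± 0.0648. Hdac9, with the most UMIs of any member (228116 in the 7 types of the Hip and 155020 in those of the PFC), was last of the 10 per kb in oligodendrocytes, at 0.242 ± 0.0872 in the Hip and 0.168 ± 0.0458 in the PFC. Without the division by span it was highest of the 10 in hippocampal oligodendrocytes, at 211 ± 75.8 CPM before Hdac8 at 181 ± 36.3. The order of members thus depends on that division.

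The pattern of each member over 14 points (7 types in 2 regions, mean of 9 mice, log2(CPM + 1)) was also set beside that of the 13553 genes that reached 10 CPM in some type. These points share libraries and depth, and the correlations are a description. The genes most like Hdac8 were Abhd3 (Pearson r 0.958) and 4932443I19Rik (0.948), those most like Hdac7 were Lrrc8c (0.948) and the tight junction gene Tjp1 (0.909), and those most like Hdac11 were Mgrn1 (0.926) and St3gal3 (0.924). For Hdac5 they were Nrd1 (0.946) and Sars (0.926), for Hdac6 Bscl2 (0.934) and Map3k10 (0.929), and for Hdac3 Pomt2 (0.931) and Guf1 (0.911). Armc2 was among those most like Hdac4 (0.945) and Abhd6 among those most like Hdac9 (0.920). Weaker likeness was found for Hdac2, with Fuca2 (0.827) and 6030458C11Rik (0.792), and for Hdac1, with Fcf1 (0.799) and Yipf1 (0.780). Among the members themselves the closest pair was Hdac3 and Hdac4 (r 0.68) and the most opposed pair was Hdac2 and Hdac5 (r -0.75).

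In the Hip, the comparison of GF with SPF mice asks whether the deacetylases were transcribed differently without a microbiota. Most differences pointed down: Hdac8 was lower in GF mice in 5 types, Hdac7 in 6, and Hdac9, Hdac4 and Hdac6 in 3, 3 and 2, with log2 fold changes from -1.77 to -0.32. Higher in GF mice were Hdac4 in astrocytes and Hdac5 and Hdac11 in interneurons. Hdac1 and Hdac2 were not called in any type. In all, 24 of 63 tests passed (adjusted p under 0.05 in edgeR's quasi-likelihood test with Benjamini-Hochberg adjustment over all genes of a type, so that p-values measure the spread between these mice), 3 higher and 21 lower in GF mice, beside 32.2% of all genes in these types (18% higher and 14.2% lower). The median log2 fold change was -0.19 over the 63 tests and between -0.04 and 0.04 over all genes of a type. In 29 of the 63 the 3 GF and 3 SPF values did not overlap, beside 45.4% of all genes. By class, 7 of 26 tests were called in class I (all lower), 14 of 26 in class IIa (2 higher, 12 lower), 2 of 5 in class IIb (Hdac6 alone, both lower) and 1 of 6 in class IV (Hdac11 alone, higher). From here on levels are CPM within a cell type of a region, given for each mouse (GF 5, 6 and 7, SPF 30, 31 and 32, CGF 17, 18 and 19, in that order).

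**Figure D2:**
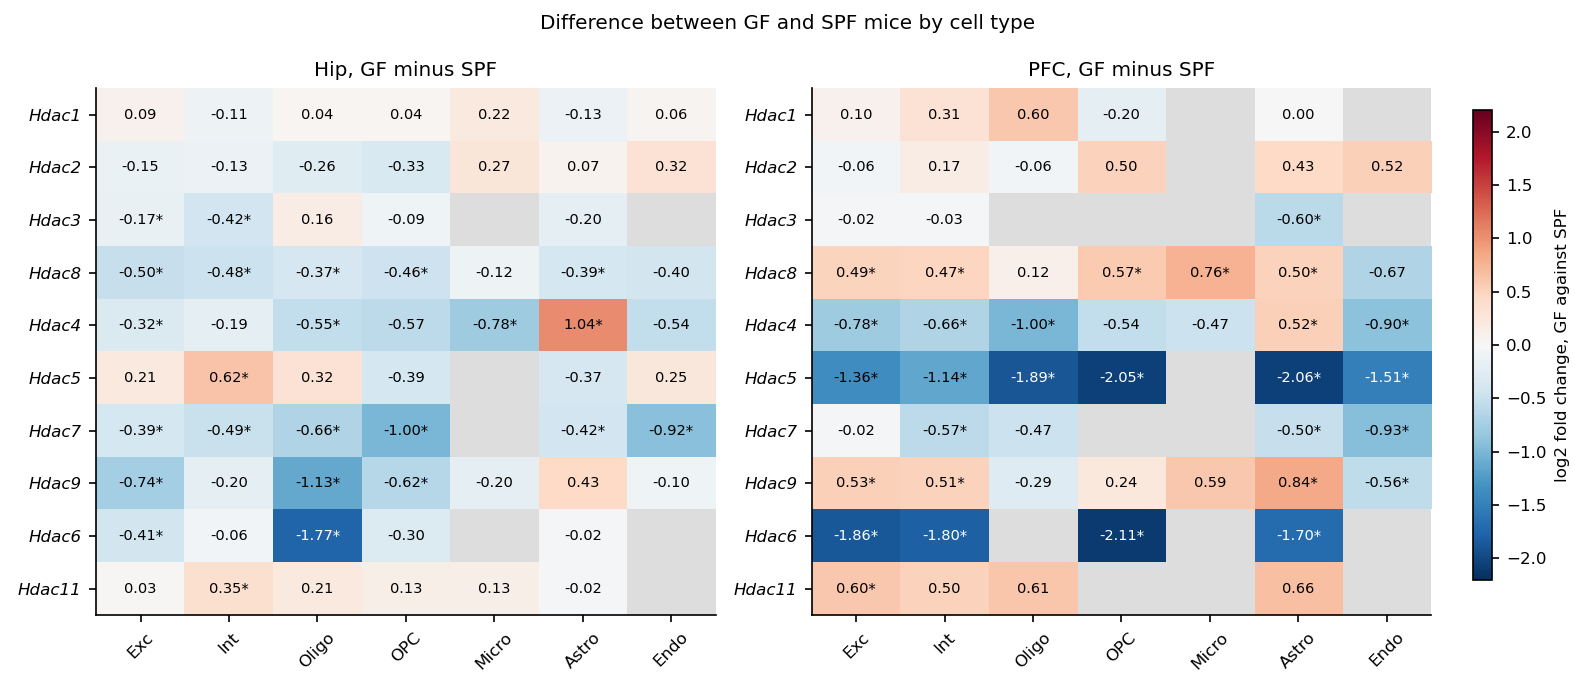
Log2 fold change of each member (rows) in each cell type (columns) between GF and SPF mice, in the Hip on the left and the PFC on the right. Red is higher and blue lower in GF mice, an asterisk marks an adjusted p under 0.05, and grey cells did not pass the filter on low counts. In the PFC, Hdac5 and Hdac6 are blue and Hdac8 mostly red, while in the Hip Hdac8 is blue.

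Class I in the Hip was led by Hdac8. In excitatory neurons Hdac8 measured 134, 114 and 132 CPM in the GF mice, 173, 187 and 179 in the SPF mice and 194, 199.9 and 189.9 in the CGF mice. The 3 GF values lay below all SPF and CGF values (log2 fold change -0.50 ± 0.07 (SE), adjusted p = 0.000456 for GF against SPF). In interneurons it measured 178, 143 and 151 CPM in the GF mice, 217, 234 and 209 in the SPF mice and 263, 248 and 223 in the CGF mice. GF was again lowest without overlap (log2 fold change -0.48 ± 0.10 (SE), adjusted p = 0.00259). Astrocytes, where Hdac8 is most abundant, gave 859, 821 and 859 CPM in the GF mice, 1216, 1210 and 902 in the SPF mice and 1356, 1341 and 1109 in the CGF mice. GF values were close together and all lower (log2 fold change -0.39 ± 0.13 (SE), adjusted p = 0.0313), and this call was lost when any of the 3 GF mice or SPF mouse 30 or 31 was left out. OPC gave 238, 268 and 224 CPM in the GF mice, 334, 346 and 323 in the SPF mice and 409.6, 379 and 369.8 in the CGF mice (log2 fold change -0.46 ± 0.13 (SE), adjusted p = 0.0120), a call also lost without GF mouse 7. In oligodendrocytes the log2 fold change was -0.37 ± 0.13 (adjusted p = 0.0390), it was lost in 8 of 18 alternatives, and with the length and GC trend removed it was 0.04. Each of the 5 Hdac8 calls was lost when the dependence of a library's counts on the length and GC content of genes was removed. The 6 astrocyte markers, none at 0, also summed to less in GF than in SPF mice in the other 4 types with an Hdac8 call. They gave 388 to 461 against 472 to 627 CPM in excitatory neurons and 132 to 174 against 176 to 286 in interneurons. They gave 322 to 374 against 482 to 539 in OPC and 260.2 to 279 against 383 to 445 in oligodendrocytes. Their part in the Hdac8 falls was not tested.

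Lower ranges of Hdac8 in GF mice were found in each gated subtype of hippocampal excitatory neurons. CA1 neurons held 114 to 139 CPM in GF and 185 to 191 in SPF mice, CA3 neurons 126 to 141 and 196 to 205, and dentate granule neurons 184 to 223 and 317 to 349.8 (CPM of the subtype with the scaling factor of all excitatory neurons of the mouse, a description with no test). Hdac3 was the other class I member called. In interneurons it measured 28.6, 32.8 and 28.8 CPM in the GF mice, 41.98, 43.6 and 35.5 in the SPF mice and 41.3, 33.5 and 37.1 in the CGF mice, without overlap between GF and SPF (log2 fold change -0.42 ± 0.13 (SE), adjusted p = 0.0195), a call lost with the top 5% of nuclei by UMIs removed and without GF mouse 5 or 7 or SPF mouse 30 or 31. In excitatory neurons the difference was -0.17 ± 0.06 (adjusted p = 0.0494), which 12 of 18 alternatives lost. Hdac1 and Hdac2, tested in all 7 types, had medians of 0.04 and -0.13 over the types.

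Class IIa held the most calls. Hdac9 in oligodendrocytes measured 112, 119 and 135 CPM in the GF mice, 292, 263 and 244 in the SPF mice and 266, 251 and 244 in the CGF mice. All GF mice lay well below all others, without overlap (log2 fold change -1.13 ± 0.12 (SE), adjusted p = 3.61e-05). Excitatory neurons gave 364, 349.7 and 339 CPM in the GF mice, 660.2, 604 and 499 in the SPF mice and 599.8, 575 and 459 in the CGF mice, again with GF lowest (log2 fold change -0.74 ± 0.12 (SE), adjusted p = 0.000906). OPC gave 172, 181 and 199 CPM in the GF mice, 303, 289 and 259 in the SPF mice and 335, 339 and 297 in the CGF mice (log2 fold change -0.62 ± 0.13 (SE), adjusted p = 0.00210), a call lost with the length and GC trend removed. In CA1, CA3 and dentate granule neurons the GF mice held 520.5 to 541, 424 to 459 and 258 to 306 CPM and the SPF mice 757 to 960.2, 658 to 954 and 460.5 to 564 (CPM of the subtype with the scaling factor of all excitatory neurons of the mouse).

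Hdac4 went in opposite directions by cell type. In astrocytes it measured 215, 209 and 319.6 CPM in the GF mice, 121, 124 and 119.9 in the SPF mice and 150.5, 142 and 172 in the CGF mice. GF values were all above the others, with mouse 7 highest (log2 fold change 1.04 ± 0.15 (SE), adjusted p = 0.000137), and without mouse 7 the log2 fold change was 0.78, the lowest when any mouse was left out. The summed excitatory neuron markers in these astrocytes were 1303 to 1552 CPM in GF and 990.4 to 1368 in SPF mice, whose part in the result was not tested. In excitatory neurons Hdac4 was lower in GF mice, at 84.2, 77.4 and 83.7 CPM in the GF mice and 103, 95.7 and 107 in the SPF mice (log2 fold change -0.32 ± 0.07 (SE), adjusted p = 0.00398), a call lost with the length and GC trend removed. Oligodendrocytes gave 59.1, 57.9 and 50.4 CPM in the GF mice and 78.1, 67.4 and 98.4 in the SPF mice (log2 fold change -0.55 ± 0.16 (SE), adjusted p = 0.0175), a call lost with that trend removed and without GF mouse 7 or SPF mouse 32. In microglia it measured 67.4, 30.2 and 52.9 CPM in the GF mice and 86.1, 82.5 and 92.5 in the SPF mice (log2 fold change -0.78 ± 0.26 (SE), adjusted p = 0.0343), the single call among the members in hippocampal microglia, where 6 members were tested, beside 24.2% of all genes. That call was lost in 8 of 18 alternatives, and the summed astrocyte markers in microglia were also lower in GF mice (1684 to 1798 against 2239 to 3087 CPM), whose part in the result was not tested.

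Hdac7 was lower in GF mice in all 6 types tested. In excitatory neurons it measured 30.4, 36.4 and 36.7 CPM in the GF mice, 43.1, 48.2 and 43.8 in the SPF mice and 38.1, 38.97 and 39.99 in the CGF mice. GF values lay below all SPF and CGF values (log2 fold change -0.39 ± 0.08 (SE), adjusted p = 0.00435). Endothelial cells, its type of highest level, gave 113, 99.9 and 93.1 CPM in the GF mice, 194, 206 and 166 in the SPF mice and 166, 101 and 138 in the CGF mice (log2 fold change -0.92 ± 0.23 (SE), adjusted p = 0.0326). These cells were few, 31 to 154 nuclei for each mouse. GF and SPF did not overlap, while CGF mouse 18 lay within the GF range, and the call was lost in 7 of 17 alternatives. The difference was -1.0 ± 0.27 in OPC, -0.66 ± 0.15 in oligodendrocytes, -0.49 ± 0.11 in interneurons and -0.42 ± 0.15 in astrocytes (log2 ± SE, adjusted p = 0.0110, 0.00362, 0.00386 and 0.0452). All 4 of these calls were lost with the length and GC trend removed, the OPC call also in DESeq2 and in thinned libraries, and the astrocyte call in 9 of 18 alternatives. The 6 oligodendrocyte markers, none at 0, also summed to less in GF than in SPF mice in 4 of these types. They gave 99.2 to 111 against 163 to 281 CPM in excitatory neurons, 76.96 to 102 against 153 to 256 in interneurons, 212 to 266 against 386 to 534 in OPC and 223 to 271 against 373 to 509 in astrocytes. In endothelial cells the sums overlapped (388 to 489 and 394 to 645), and the part of these markers in the falls was not tested. Hdac5 went the other way in interneurons, at 47.3, 46.9 and 45.4 CPM in the GF mice, 32.8, 30.2 and 27.8 in the SPF mice and 32.6, 25.8 and 24.7 in the CGF mice. GF values were highest without overlap (log2 fold change 0.62 ± 0.12 (SE), adjusted p = 0.00226), and this call held in all 18 alternatives.

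Class IIb and class IV gave 3 calls in the Hip. Hdac6 in oligodendrocytes measured 3.94, 4.04 and 2.65 CPM in the GF mice, 8.62, 14.4 and 14.2 in the SPF mice and 11.8, 10.9 and 9.18 in the CGF mice, low counts in which GF mice were lowest without overlap (log2 fold change -1.77 ± 0.37 (SE), adjusted p = 0.00222). In excitatory neurons it measured 10.8, 12.2 and 11.5 CPM in the GF mice, 15.4, 14.9 and 15.5 in the SPF mice and 16.3, 14.6 and 14.04 in the CGF mice (log2 fold change -0.41 ± 0.09 (SE), adjusted p = 0.00372). Both held in all alternatives. Hdac11 in interneurons measured 48.3, 51.8 and 49.7 CPM in the GF mice, 33.97, 44.2 and 39.7 in the SPF mice and 35.9, 39.7 and 39.9 in the CGF mice, with GF above SPF (log2 fold change 0.35 ± 0.11 (SE), adjusted p = 0.0296), and was lost in 10 of 18 alternatives.

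**Figure D3:**
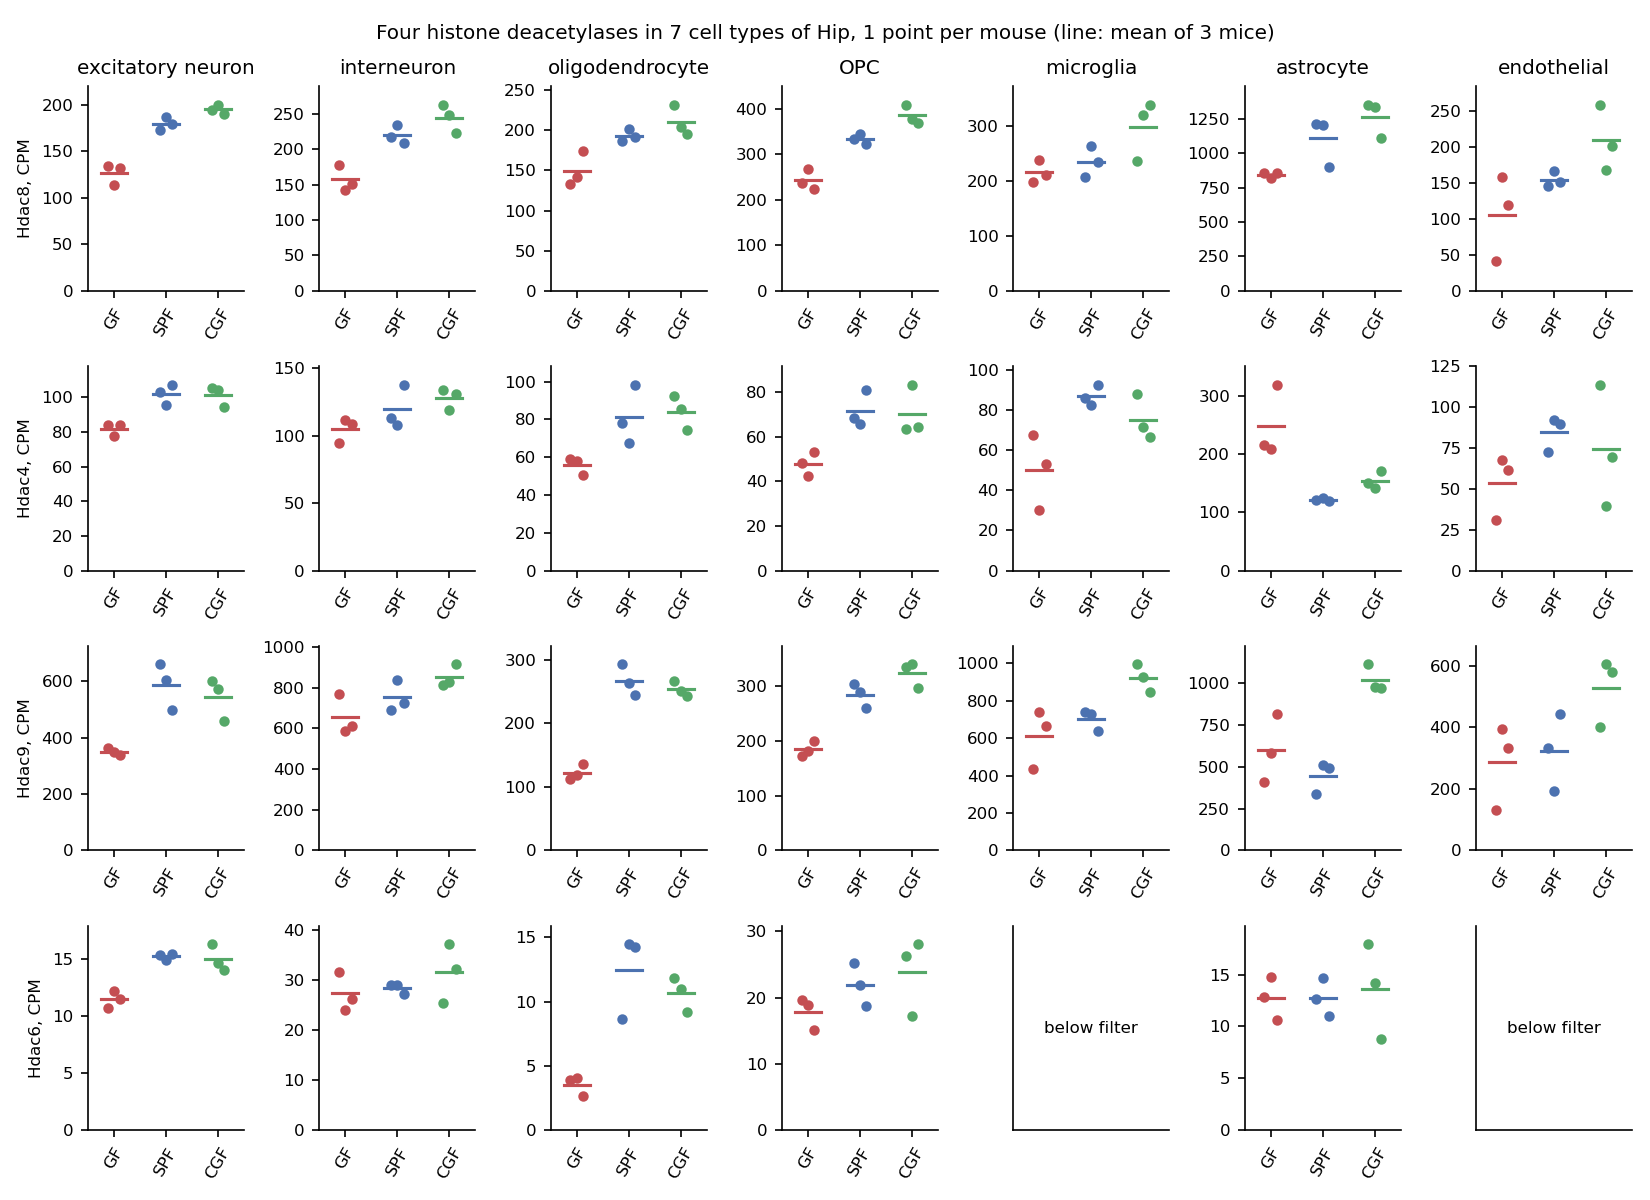
Hdac8, Hdac4, Hdac9 and Hdac6 (rows) in the 7 cell types of the Hip (columns). Each point is 1 mouse in CPM within the cell type, from 0, and the line is the mean of the 3 mice of a group. GF points lie lowest for Hdac8 in most types and highest for Hdac4 in astrocytes, and CGF points lie highest for Hdac9 in astrocytes.

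Of the 24 calls, 7 held in every alternative that gave a value: Hdac6, Hdac7 and Hdac9 in excitatory neurons, Hdac5 in interneurons, Hdac6 and Hdac9 in oligodendrocytes, and Hdac4 in astrocytes. With the length and GC trend of each library removed, 15 of the 24 were lost and 11 tests were called in all (4 higher, 7 lower), and without GF mouse 7 the count was 15. The share of all genes called under these alternatives is not given here, so the losses are not read as particular to the members.

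Colonized mice were compared with SPF mice to ask whether GF mice given a microbiota differed from mice raised with one. Hdac9 in hippocampal astrocytes was the 1 of 63 tests called in the Hip, beside 0.231% of all genes (0.133% higher). Its level was 1114, 981 and 974 CPM in the CGF mice, 339, 513 and 493 in the SPF mice and 410.2, 583 and 817 in the GF mice. CGF values were above all others, and SPF and GF values overlapped (log2 fold change 1.19 ± 0.20 (SE), adjusted p = 0.0303). The call was lost when any of the CGF or SPF mice was left out, with log2 fold changes from 1.02 to 1.29, and with clusters in place of the marker gate. The excitatory neuron markers summed to 842 to 1269 CPM in these CGF astrocytes and 990.4 to 1368 in the SPF ones, whose part in the result was not tested. In the PFC, 0 of 54 tests were called by edgeR and 0 by DESeq2, beside 0.194% of all genes by edgeR. Its unadjusted p was under 0.05 in 3 of these 54 tests and in 8 of the 63 of the Hip. Among all genes such p-values ran from 376 of 8052 (endothelial cells) to 2756 of 18661 (excitatory neurons) in the Hip. In the PFC they ran from 225 of 3092 (microglia) to 2273 of 17353 (excitatory neurons). CGF and SPF values did not overlap in 11 tests of the Hip and 4 of the PFC, beside 15.1% and 13.5% of all genes.

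GF mice were also set against CGF mice, which lived in the same kind of isolator, and which had both a later microbiota and an SPF cage mate, so that the 2 cannot be told apart. This comparison shares its GF mice with that against SPF mice and is not independent of it. In the Hip 20 of 63 tests were called (4 higher and 16 lower in GF mice), beside 33.1% of all genes (18.2% higher and 14.9% lower), and 33 did not overlap, beside 47%. With the length and GC trend removed 9 were called (3 higher, 6 lower). The share of all genes under that setting is not given here, so the drop is not read as particular to the members. Hdac8 was lower in GF mice in 5 types, from -0.50 on the log2 scale in oligodendrocytes to -0.67 in OPC, beside -0.37 and -0.46 against SPF mice. Hdac9 was lower in GF mice in 6 types, and in microglia it measured 432, 741 and 663 CPM in the GF, 993, 927 and 846 in the CGF and 742, 728 and 640.2 in the SPF mice, where GF and CGF did not overlap (log2 fold change -0.59 ± 0.17 (SE), adjusted p = 0.0122) and GF and SPF did. The astrocyte markers in these microglia summed to 1684 to 1798 CPM in GF and 2466 to 3527 in CGF mice, whose part in the result was not tested. Hdac7, lower in 6 types against SPF mice, was called in OPC alone against CGF mice (-0.82), a call lost in 9 of 18 alternatives. Hdac5 was higher in GF mice in interneurons (0.75) and in excitatory neurons, where it measured 22.3, 23.2 and 20.7 CPM in the GF mice, 19.4, 19.6 and 18.2 in the SPF mice and 16.6, 15.3 and 14.5 in the CGF mice (log2 fold change 0.51 ± 0.08 (SE), adjusted p = 0.000690). In astrocytes Hdac4 was higher in GF mice by 0.69 ± 0.15.

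In the PFC, the same comparison of GF with SPF mice gave falls in CPM of Hdac5 and Hdac6 in every type tested, and rises of Hdac8. Hdac5 fell by 1.14 to 2.06 on the log2 scale in 6 types and Hdac6 by 1.70 to 2.11 in 4. Hdac8 rose in 5 types, Hdac9 in 3 and Hdac11 in excitatory neurons, while Hdac4 fell in 4 types and rose in astrocytes. In all, 29 of 54 tests were called (10 higher and 19 lower in GF mice), beside 48.8% of all genes (24.7% higher and 24.1% lower), and the share of members is near that background. The median log2 fold change was -0.04 over the 54 tests and between -0.05 and 0.02 over all genes of a type, and 34 tests did not overlap, beside 58.3% of all genes. By class, 6 of 21 tests were called in class I (5 higher, 1 lower), 18 of 25 in class IIa (4 higher, 14 lower), 4 of 4 in class IIb (Hdac6 alone, all lower) and 1 of 4 in class IV (Hdac11 alone, higher). Against CGF mice, which share the GF mice of this comparison, 26 of 54 were called (9 higher, 17 lower), beside 47.9% of all genes (24.5% higher and 23.4% lower), and 28 did not overlap, beside 56.1%.

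Hdac6, whose promoter with 5 GC boxes is printed above, measured 12.9, 15.04 and 13.9 CPM in the GF mice, 55.9, 46.4 and 49.5 in the SPF mice and 46.4, 40.4 and 57.6 in the CGF mice in excitatory neurons of the PFC. GF values were far below all others (log2 fold change -1.86 ± 0.13 (SE), adjusted p = 2.83e-07). In interneurons it measured 20.1, 20.3 and 21.4 CPM in the GF mice, 84.5, 58.8 and 72.4 in the SPF mice and 56.8, 57.9 and 78.1 in the CGF mice (log2 fold change -1.80 ± 0.17 (SE), adjusted p = 2.74e-07). OPC gave 20.1, 18.2 and 12.6 CPM in the GF mice and 66.02, 88.97 and 69.4 in the SPF mice (log2 fold change -2.11 ± 0.42 (SE), adjusted p = 9.12e-05), and astrocytes 13.7, 17.7 and 7.38 CPM in the GF mice and 47.9, 38.98 and 36.5 in the SPF mice (log2 fold change -1.70 ± 0.32 (SE), adjusted p = 0.000105). Before scaling, a mouse held 8 to 12 Hdac6 UMIs in OPC and 14 to 48 in astrocytes, over all groups. The OPC held 580511 to 743828 UMIs of all genes in GF and 138164 to 200712 in SPF mice. The lower CPM is thus a smaller share of larger totals, whose part was not tested. In the Hip the 9 mice held 10.8 to 16.3 CPM of Hdac6 in excitatory neurons, so that the GF values of the PFC lay within the hippocampal range and the 6 SPF and CGF values of the PFC above it. These 6 are the libraries that stood apart in depth and mitochondrial share, whose part in the result was not tested beyond the alternatives.

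Hdac5, whose window holds the MEF2 core, measured 27.2, 26.5 and 22.3 CPM in the GF mice, 72.8, 58.5 and 63.3 in the SPF mice and 62.2, 46.5 and 69.5 in the CGF mice in excitatory neurons of the PFC. GF values were lowest without overlap (log2 fold change -1.36 ± 0.15 (SE), adjusted p = 7.15e-06). Before scaling, a mouse held 950 to 1323 Hdac5 UMIs in these neurons and 5 to 15 in OPC, over all groups. The lower CPM of GF mice is thus a smaller share of the larger totals given above for Hdac6, and the part of these totals was not tested. Oligodendrocytes gave 30.9, 42.5 and 52.8 CPM in the GF mice, 154, 161 and 158 in the SPF mice and 180.2, 127 and 98.8 in the CGF mice (log2 fold change -1.89 ± 0.25 (SE), adjusted p = 7.29e-07), and astrocytes 16.9, 11.8 and 16.9 CPM in the GF mice, 68.5, 61.9 and 64.3 in the SPF mice and 72.8, 69.5 and 60.5 in the CGF mice (log2 fold change -2.06 ± 0.24 (SE), adjusted p = 1.23e-07). In interneurons, OPC and endothelial cells the log2 fold change was -1.14 ± 0.18, -2.05 ± 0.46 and -1.51 ± 0.42. Excitatory neuron markers summed to 1713 to 2079 CPM in GF and 1200 to 1680 in SPF oligodendrocytes of the PFC, and to 1565 to 1863 and 1162 to 1490 in OPC. OPC markers in these oligodendrocytes summed to 544.5 to 679 CPM in GF and 327 to 430 in SPF mice. The part of these markers in the changes of members in oligodendrocytes and OPC was not tested. Over the 9 mice of the Hip, Hdac5 in excitatory neurons held 14.5 to 23.2 CPM, all below the SPF and CGF values of the PFC. The calls of Hdac6 in 4 types and of Hdac5 in 5 held in every alternative that gave a value, among them the length and GC trend removed and libraries thinned to the lowest mean UMIs per nucleus, where Hdac5 in OPC had no value. Thinning drew on all genes of a library at the same rate, which leaves the share of each gene unchanged on average. It therefore cannot test the part of library depth in these fold changes. The endothelial call of Hdac5 was lost in DESeq2 and without GF mouse 7 or SPF mouse 32.

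**Figure D4:**
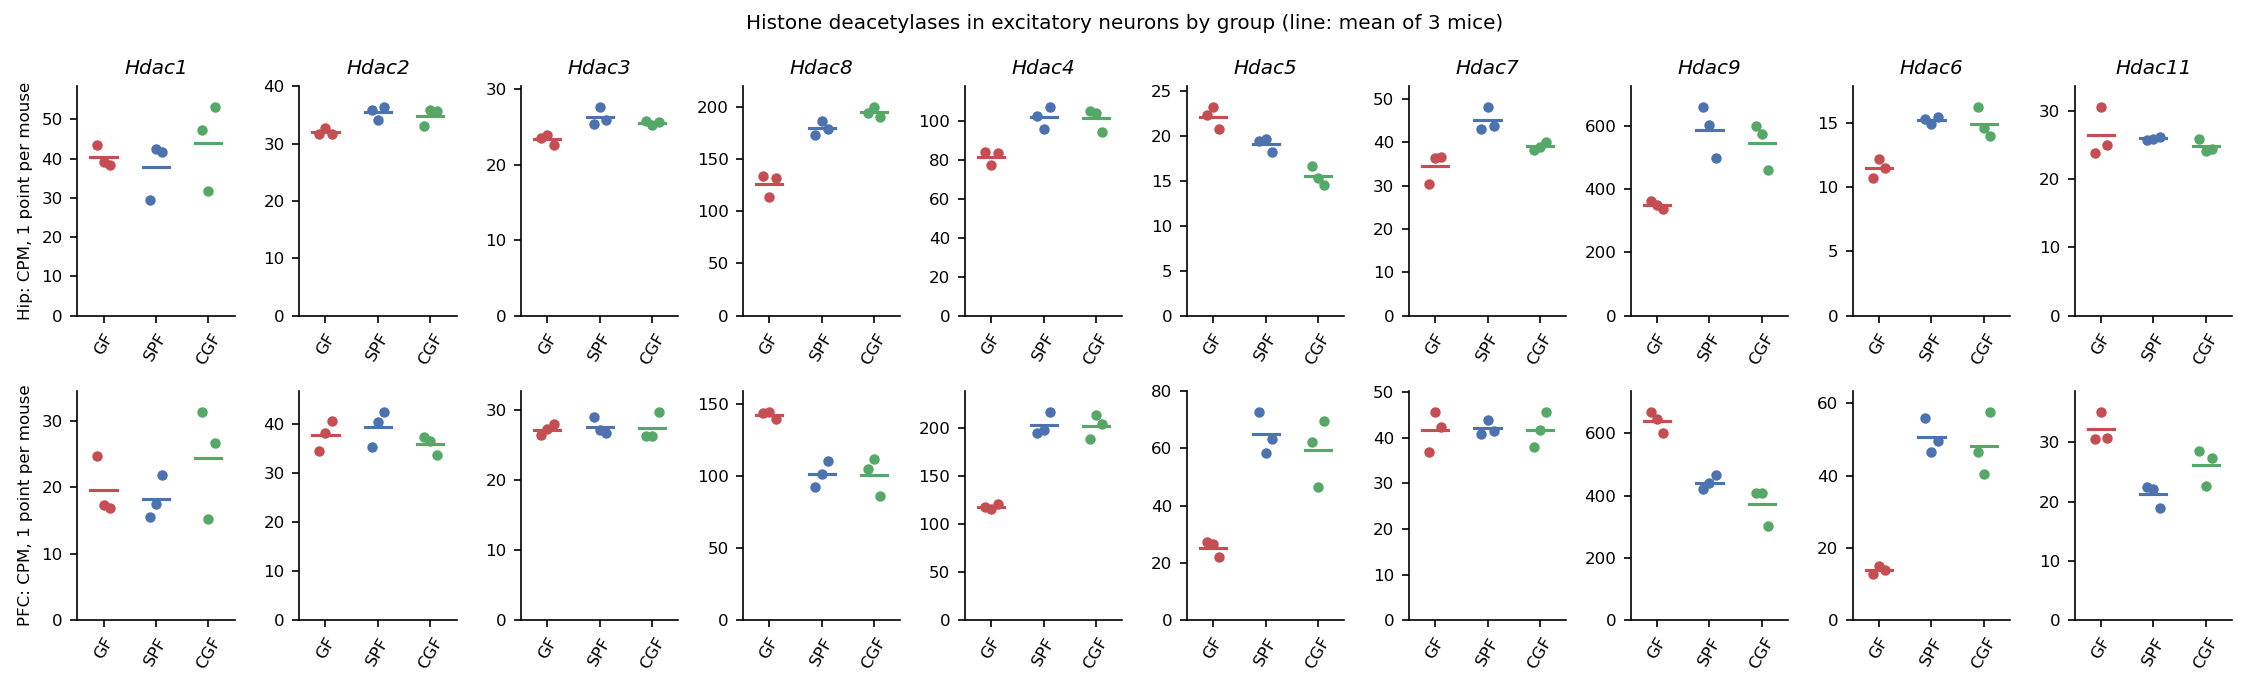
All 10 members (columns) in excitatory neurons of the Hip (upper row) and the PFC (lower row). Each point is 1 mouse in CPM within the cell type, from 0, and the line is the mean of 3 mice. In the PFC the GF points of Hdac5, Hdac6 and Hdac4 lie below both other groups, and those of Hdac8, Hdac9 and Hdac11 above.

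The other class IIa members of the PFC split by type. Hdac4 in excitatory neurons measured 117, 116 and 121 CPM in the GF mice, 195, 198 and 217 in the SPF mice and 188, 213 and 204 in the CGF mice, with GF lowest without overlap (log2 fold change -0.78 ± 0.08 (SE), adjusted p = 5.54e-06). It was also lower in interneurons, oligodendrocytes and endothelial cells, with log2 fold changes of -0.66 ± 0.12, -1.0 ± 0.24 and -0.90 ± 0.28, of which the oligodendrocyte call was lost with libraries thinned and the endothelial call in 5 of 18 alternatives. Astrocytes differed in direction here too, with 278, 269 and 406 CPM in the GF mice, 221, 181 and 260.5 in the SPF mice and 259, 248 and 296 in the CGF mice (log2 fold change 0.52 ± 0.17 (SE), adjusted p = 0.0157), a call lost without GF mouse 7 (0.30) or SPF mouse 31 (0.37). Hdac9 rose in excitatory neurons, from 420.5, 439 and 465 CPM in the SPF mice to 669, 646 and 599.8 in the GF mice, without overlap (log2 fold change 0.53 ± 0.12 (SE), adjusted p = 0.00193). Astrocytes gave 384, 446 and 467 CPM in the GF mice and 201, 229 and 290 in the SPF mice for it (log2 fold change 0.84 ± 0.16 (SE), adjusted p = 8.92e-05). The excitatory neuron markers in these astrocytes summed to 1491 to 1808 CPM in GF and 1062 to 1524 in SPF mice, whose part in the result was not tested. In interneurons Hdac9 was higher by 0.51 ± 0.16 (adjusted p = 0.0157), a call lost with the length and GC trend removed and without GF mouse 5 or SPF mouse 30. In endothelial cells Hdac9 was lower in GF mice (-0.56 ± 0.19), a call lost in 8 of 18 alternatives, and so was Hdac7, at 91.5, 162 and 131 CPM in the GF mice, 226, 236 and 258 in the SPF mice and 323, 225 and 239 in the CGF mice (log2 fold change -0.93 ± 0.24 (SE), adjusted p = 0.00259), a call lost with the length and GC trend removed. Hdac7 was also lower in interneurons (-0.57 ± 0.17) and astrocytes (-0.50 ± 0.20), calls that 3 and 10 of 18 alternatives lost, and in astrocytes the value was 0.09 with the length and GC trend removed. The summed excitatory neuron markers in endothelial cells were 1629 to 1950 CPM in GF and 883 to 1245 in SPF mice, and the 5 mural cell markers there, none of them at 0, summed to 1921 to 2509 CPM (GF), 790.3 to 1281 (SPF) and 809 to 888 (CGF). The part of either in these falls was not tested.

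Hdac8 in excitatory neurons of the PFC measured 144, 145 and 139 CPM in the GF mice, 92.9, 102 and 111 in the SPF mice and 105, 112 and 86.5 in the CGF mice, with GF highest without overlap (log2 fold change 0.49 ± 0.10 (SE), adjusted p = 0.00133). In interneurons it measured 184, 181 and 173 CPM in the GF mice, 132, 126 and 131 in the SPF mice and 146, 152 and 129.6 in the CGF mice (log2 fold change 0.47 ± 0.11 (SE), adjusted p = 0.00219). Astrocytes gave 687, 902 and 723 CPM in the GF mice, 568, 463 and 601 in the SPF mice and 439.6, 623 and 449.8 in the CGF mice, where GF lay above all SPF and CGF values (log2 fold change 0.50 ± 0.16 (SE), adjusted p = 0.0122). That call was lost without GF mouse 6 or SPF mouse 31. In OPC, Hdac8 was higher by 0.57 ± 0.21 (adjusted p = 0.0286), a call lost in DESeq2, with Leiden clusters, with the length and GC trend removed and without GF mouse 6 or SPF mouse 30 or 31. In microglia, Hdac8 was the 1 of 3 tested members that was called, beside 36% of all genes, at 335, 287 and 256 CPM in the GF mice, 161, 198 and 162 in the SPF mice and 229.9, 230.3 and 195 in the CGF mice (log2 fold change 0.76 ± 0.28 (SE), adjusted p = 0.0312), and it was lost in 9 of 18 alternatives. Excitatory neuron markers summed to 1960 to 2184 CPM in GF microglia and 1093 to 1515 in SPF microglia of the PFC, whose part in the result was not tested. Hdac3 was lower in astrocytes (-0.60 ± 0.25, adjusted p = 0.0491), which 13 of 18 alternatives lost. Hdac11 in excitatory neurons measured 30.6, 35.1 and 30.8 CPM in the GF mice, 22.5, 22.2 and 18.9 in the SPF mice and 28.5, 22.6 and 27.3 in the CGF mice (log2 fold change 0.60 ± 0.12 (SE), adjusted p = 0.000761). Hdac1 and Hdac2 were again not called in any type between GF and SPF mice, and Hdac1 was lower in GF than in CGF astrocytes (-0.64 ± 0.21, adjusted p = 0.0124). Of the 29 calls, 16 held in every alternative that gave a value, and 7 were lost with the length and GC trend removed. No share of all genes is given for these alternatives, and nothing particular to the members is read from the losses.

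The difference between the regions was tested itself, as the GF against SPF contrast of the PFC minus that of the Hip in 1 fit of all 18 libraries. It passed in 20 of 68 tests (10 higher and 10 lower in the PFC), beside 26.8% of all genes (14.8% higher and 11.9% lower). Hdac8 differed in excitatory neurons, interneurons, OPC and astrocytes, by 1.05 ± 0.12, 0.97 ± 0.14, 1.0 ± 0.25 and 0.93 ± 0.21 on the log2 scale, being lower in GF mice in the Hip and higher in the PFC in each. The OPC and astrocyte calls of Hdac8 were lost with the length and GC trend removed. Hdac9 did so in excitatory neurons (1.34 ± 0.18, adjusted p = 6.75e-06). Hdac6 fell further in the PFC in excitatory neurons (-1.39 ± 0.17, adjusted p = 2.99e-06). Hdac5 differed in oligodendrocytes (-2.19 ± 0.31, adjusted p = 9.99e-06), where it was lower in GF mice in the PFC (-1.89) and not called in the Hip. The median over all genes of a type was between 0.05 and 0.13, and over the 68 tests 0.17. Library depth also turned between the regions. In the Hip, GF mice had fewer median UMIs per nucleus than SPF mice (4593 to 5809.5 against 6132 to 7054). In the PFC they had more (6721 to 7338.5 against 3028 to 3187), so region and depth cannot be told apart in these differences. With the mouse as a replicate block, 20 tests were again called (10 higher, 10 lower), with the length and GC trend removed 17 were (6 higher, 11 lower), and 14 of the 20 held in every alternative that gave a value. These counts describe the members alone, as the share of all genes under the alternatives is not given here.

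**Figure D5:**
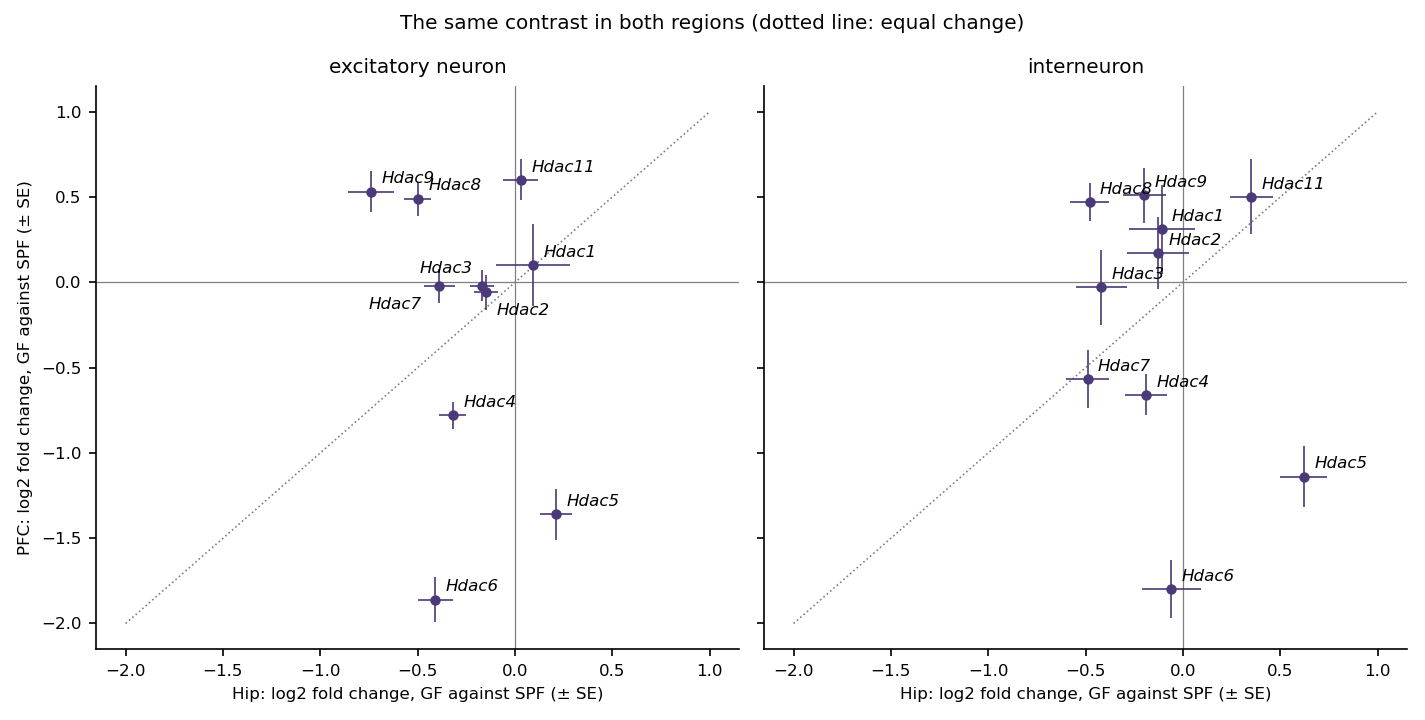
Log2 fold change between GF and SPF mice of each member in the Hip (horizontal axis) and the PFC (vertical axis), in excitatory neurons on the left and interneurons on the right. Bars are SE, and the dotted line marks equal change. Hdac8 lies left of 0 and above 0, and Hdac5 and Hdac6 lie far below the dotted line.

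Between the regions of SPF mice alone, 27 of 68 tests passed (14 higher and 13 lower in the PFC), beside 38.9% of all genes (18.2% higher and 20.6% lower). Hdac5 was higher in the PFC in all 7 types, by 1.34 to 2.11 on the log2 scale, and Hdac6 in 4, by 1.13 to 1.62. The endothelial call of Hdac5 (1.34) was lost in DESeq2, with the length and GC trend removed and without 7 of the 9 mice in turn (all SPF and CGF mice and GF mouse 6), and the microglial call (1.71) with that trend removed and without any of the 3 SPF mice. Hdac4 was higher in excitatory neurons, interneurons and astrocytes (0.84 ± 0.07, 0.55 ± 0.11 and 0.82 ± 0.18). Hdac8 was lower in the PFC in 4 types, with -1.08 ± 0.15 in astrocytes, and Hdac9 in 6, with -1.10 ± 0.16 in interneurons, although in excitatory neurons its value was -0.57 ± 0.12 and turned to 0.07 with the length and GC trend removed. That alternative also lost the calls of Hdac9 in oligodendrocytes and microglia and of Hdac8 in OPC. Leiden clusters lost those of Hdac9 in oligodendrocytes and OPC. Leaving out SPF mouse 30 lost those of Hdac9 in oligodendrocytes and microglia and of Hdac8 in OPC, and leaving out SPF mouse 31 that of Hdac9 in oligodendrocytes. Hdac1 was lower in excitatory neurons (-1.20 ± 0.24, adjusted p = 0.000259). SPF libraries of the PFC were the shallower ones, so region and library depth cannot be told apart. With the mouse as a replicate block 29 were called, a count given without the share of all genes under that setting.

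The partners of these enzymes were read from 7 lists, counted whole as tests over the 7 types (GF against SPF), and the genes named from each were those with the largest change in hippocampal excitatory neurons. Beside the counts stand the 32.2% of all genes called in the Hip (18% higher, 14.2% lower) and the 48.8% in the PFC (24.7% higher, 24.1% lower), and nothing particular to a list is read from them. Sirtuins, the deacetylases that need NAD instead of zinc, passed in 17 of 42 tests in the Hip and 11 of 26 in the PFC, all higher in GF mice. Sirt6 in excitatory neurons measured 15.6, 14.9 and 12.7 CPM in the GF and 8.10, 8.19 and 7.38 in the SPF mice of the Hip (log2 fold change 0.87 ± 0.11 (SE), adjusted p = 0.000284), and 15.4, 16.5 and 13.3 against 6.25, 6.14 and 5.17 in the PFC (log2 fold change 1.37 ± 0.16 (SE), adjusted p = 1.74e-05). Sirt4 also rose in the Hip (log2 fold change 0.89 ± 0.07 (SE), adjusted p = 6.11e-05). Histone acetyltransferases, which add the mark that deacetylases remove, were called in 14 of 84 tests in the Hip (1 higher, 13 lower) and 39 of 71 in the PFC (12 higher, 27 lower). Kat6b in excitatory neurons of the Hip measured 169, 149 and 155 CPM in the GF and 244, 254 and 227 in the SPF mice (log2 fold change -0.61 ± 0.07 (SE), adjusted p = 0.000148). Kat2b fell in the Hip (log2 fold change -0.55 ± 0.08 (SE), adjusted p = 0.000557) and rose in the PFC (log2 fold change 0.52 ± 0.14 (SE), adjusted p = 0.00511).

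Co-repressor complex subunits, the partners of class I enzymes, were called higher in 25 and lower in 46 of 226 tests in the Hip, and in 18 and 65 of 187 in the PFC. Mbd3, of the NuRD complex, rose in the Hip, from 8.95, 9.42 and 13.9 CPM in the SPF to 21.8, 26.2 and 23.1 in the GF mice (log2 fold change 1.14 ± 0.19 (SE), adjusted p = 0.00118), and fell in the PFC (log2 fold change -0.89 ± 0.13 (SE), adjusted p = 9.08e-05). Sap30, of the Sin3 complex, also rose in the Hip (log2 fold change 1.37 ± 0.23 (SE), adjusted p = 0.00109). Its level was low, at 4.201, 4.584 and 3.893 CPM in the GF and 1.496, 1.135 and 2.276 in the SPF mice. In the PFC it was not called (log2 fold change -0.28 ± 0.22 (SE), adjusted p = 0.2838).

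On the class IIa side, MEF2 factors were lower in GF mice in 8 of 25 tests in the Hip and none was higher, while in the PFC 6 of 22 were higher and 1 lower. Mef2d in excitatory neurons of the Hip measured 81.1, 76.6 and 82.1 CPM in the GF and 114, 116 and 119.6 in the SPF mice (log2 fold change -0.54 ± 0.06 (SE), adjusted p = 0.000145). Mef2b fell there too (log2 fold change -0.83 ± 0.22 (SE), adjusted p = 0.0122), at low levels of 3.046, 1.998 and 1.745 CPM in the GF and 4.014, 3.749 and 4.334 in the SPF mice. In the PFC Mef2b was not called (log2 fold change -0.46 ± 0.23 (SE), adjusted p = 0.1071). Kinases of class IIa enzymes were called higher in 5 and lower in 33 of 104 tests in the Hip, and in 24 and 27 of 98 in the PFC. Camk2g in excitatory neurons fell from 111, 109.6 and 108 CPM in the SPF to 70.7, 63.8 and 66.4 in the GF mice of the Hip (log2 fold change -0.71 ± 0.07 (SE), adjusted p = 0.000113) and by 0.93 on the log2 scale in the PFC. Prkd3, at low counts, fell in the Hip (log2 fold change -1.33 ± 0.31 (SE), adjusted p = 0.00619) and was not called in the PFC (log2 fold change -0.36 ± 0.28 (SE), adjusted p = 0.2864). The 14-3-3 genes were called higher in 6 and lower in 5 of 43 tests in the Hip, and in 18 and 7 of 43 in the PFC. Ywhaz fell in excitatory neurons of both regions (log2 fold change -0.40 ± 0.09 (SE), adjusted p = 0.00623 in the Hip, log2 fold change -0.90 ± 0.14 (SE), adjusted p = 0.000120 in the PFC).

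Transporters and receptors of short-chain fatty acids, which carry or sense butyrate, were called higher in 2 and lower in 1 of 15 tests in the Hip, and higher in 7 of 12 in the PFC. Of the 8 genes of this list, 4 were tested in excitatory neurons and 1 or 2 in each other type. The counts thus rest on few genes and do not describe the list as a whole. Slc16a1, the monocarboxylate transporter MCT1, measured 14.7, 13.2 and 13.5 CPM in the GF and 5.89, 5.42 and 7.22 in the SPF mice in excitatory neurons of the PFC (log2 fold change 1.16 ± 0.16 (SE), adjusted p = 5.99e-05), and it rose in the Hip (log2 fold change 0.42 ± 0.08 (SE), adjusted p = 0.00259). Slc16a7, a second monocarboxylate transporter, fell in the Hip (log2 fold change -0.40 ± 0.09 (SE), adjusted p = 0.00507) and rose in the PFC (log2 fold change 0.44 ± 0.12 (SE), adjusted p = 0.00613).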

How the data were processed

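The authors deposited counts of UMIs for each gene and nucleus, 1 filtered matrix for each of the 18 libraries (3' droplet RNA, mm10 with Ensembl 92 annotation). The matrix headers name Cell Ranger 3.1.0, and the series' design text names Cell Ranger 2.1.0 and CASAVA 1.8. Whether reads in introns were counted, and whether strand was used, is not given in the sources used here.

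Nuclei with at least 200 genes and at most 10% mitochondrial UMIs were kept and gated by 104 marker genes (2 more of the lists were not used). A nucleus took the type with the highest score if it carried at least 2 of its markers, scored at least 0.2 and led by a margin of 0.1. No doublet caller was run, and removal of the top 5% of nuclei of each library and type by UMIs was tried instead. Between 6 and 29 barcodes were shared by a pair of libraries. UMIs were summed over each type and mouse. Groups were compared with edgeR 4.0.16 (quasi-likelihood test, TMM factors, filterByExpr, all 3 groups of a region in 1 fit, threshold 0.05) and types with an exact paired permutation test on log2(CPM + 1) in scipy 1.17.1. The fits were tested on simulated data. Alternatives were DESeq2 1.42.0, RLE factors, no filter on low counts, libraries thinned to the lowest mean UMIs per nucleus, 6 mice alone, a stricter gate (margin 0.2), Leiden clusters (scanpy 1.11.5, leidenalg 0.10.2), the length and GC trend of each library removed, and each mouse left out. Named genes were the members and, in each of the partner lists, up to 2 genes with the largest change between GF and SPF mice in hippocampal excitatory neurons among those called without overlap. A list of readers of acetylated histones and some named genes are not reported here. Members, lists and tests were chosen with earlier results of these data known. Numbers of the mice pair the regions, since each mouse gave both: deviations from group means correlated by 0.159 to 0.328 between libraries of the same mouse and by -0.228 to -0.0403 between different mice of a group (19663 genes, excitatory neurons).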

Additional observations from a re-analysis of the deposited data

Results flagged for a closer look

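For 20 of 68 pairs of member and cell type, beside 26.8% of all genes, the difference between GF and SPF mice was not the same in the 2 regions by the test of that difference (PFC minus Hip, log2 scale, mean ± SE, edgeR's quasi-likelihood test). Nothing particular to the members is read from this count. Hdac8 differed by 1.05 ± 0.12 in excitatory neurons, 0.97 ± 0.14 in interneurons, 1.0 ± 0.25 in OPC and 0.93 ± 0.21 in astrocytes. Hdac9 differed by 1.34 ± 0.18 in excitatory neurons, 0.73 ± 0.22 in interneurons, 0.87 ± 0.26 in oligodendrocytes and 0.83 ± 0.27 in OPC. Of these, the calls of Hdac8 in OPC and astrocytes and of Hdac9 in interneurons, oligodendrocytes and OPC were lost with the length and GC trend removed. That of Hdac9 in oligodendrocytes was also lost with Leiden clusters and without GF mouse 5 or SPF mouse 30 or 31, that in OPC without GF mouse 6 or 7 or SPF mouse 30 or 31, and that in interneurons without GF mouse 7. For Hdac6 the values were -1.39 ± 0.17 in excitatory neurons, -1.72 ± 0.23 in interneurons, -1.86 ± 0.51 in OPC and -1.64 ± 0.45 in astrocytes. For Hdac5 they were -1.51 ± 0.18 in excitatory neurons, -1.74 ± 0.23 in interneurons, -2.19 ± 0.31 in oligodendrocytes and -1.66 ± 0.36 in astrocytes. Hdac4 differed by -0.41 ± 0.10 in excitatory neurons and -0.45 ± 0.16 in interneurons, a call lost in interneurons without GF mouse 6 or 7 or SPF mouse 31, and in excitatory neurons Hdac7 differed by 0.43 ± 0.14 and Hdac11 by 0.63 ± 0.16. In the PFC, GF mice are also the mice with the deeper libraries. In the Hip their median UMIs per nucleus lay below those of SPF mice, so a difference between regions cannot be told apart from a difference in library depth.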

How the results depend on the processing

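Counts under an alternative are given here without the share of all genes called under it, so they describe the members alone. Of the 24 calls between GF and SPF mice in the Hip, 7 held in every alternative that gave a value and 14 when any mouse was left out, and of the 29 in the PFC 16 and 18. With the length and GC trend of each library removed, the count in the Hip was 11 (4 higher, 7 lower), and that between GF and CGF mice in the Hip was 9 (3 higher, 6 lower) beside 20. That setting also turned the direction of Hdac8 in oligodendrocytes of the Hip (0.04), of Hdac7 in astrocytes of the PFC (0.09) and, between the regions of SPF mice, of Hdac9 in excitatory neurons (0.07). The cause was not tested. Leaving out 1 mouse gave 15 to 24 calls between GF and SPF mice in the Hip, lowest without GF mouse 7, and 23 to 30 in the PFC. Between CGF and SPF mice in the Hip the count of 1 became 0 with Leiden clusters, and 0 to 1 when a mouse was left out. With the mouse as a replicate block, 20 member tests differed between regions (10 higher, 10 lower) and 29 differed between the regions of SPF mice (15 higher, 14 lower). Endothelial cells of the Hip have no value with Leiden clusters, as their cluster stayed unnamed. Low counts limit the tests of the PFC, where Hdac3 passed the filter in 3 types and Hdac6 and Hdac11 in 4 each.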
